A study of Mus musculus with 8 samples.

Results

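Glucose enters cells through facilitative glucose transporters, and lactate and pyruvate cross membranes through monocarboxylate transporters. The genes described here were *Slc2a1* and *Slc2a3*, which encode the glucose transporters GLUT1 and GLUT3, *Slc16a1*, *Slc16a7* and *Slc16a3*, which encode the monocarboxylate transporters MCT1, MCT2 and MCT4, and *Ldha* and *Ldhb*, the subunits of lactate dehydrogenase. They were chosen by name as the carriers and enzymes of glucose and lactate supply, and all 7 were found among the 33696 genes of the count matrices. Their levels were measured by single-nucleus RNA-seq (snRNA-seq) of mouse optic nerve (ON), a white matter tract made of retinal ganglion cell axons, glia, vessels and a connective tissue sheath. The question for these genes was which ON cell types carry which transporter and subunit, and whether their levels differed between genotypes.

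Both groups carried the floxed *Piezo2* allele (Piezo2f/f) on a C57BL/6J background, and all mice were females at postnatal day 120. The control group had no Cre, and the cKO group carried Olig2-cre, which is active in the oligodendrocyte (OL) lineage and in other cells that had expressed *Olig2* earlier. Olig2-cre is a knock-in with Cre placed in the single *Olig2* exon, so mice with it have a disrupted *Olig2* copy that the controls do not have. There were 4 libraries per group, with control replicates numbered 1 to 4 and cKO replicates 10 to 13, and each library pooled 6 ONs of 3 mice. Pooled nerves made each library a replicate, so p-values measure the spread between libraries rather than between mice.

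In the central nervous system, GLUT1 is known as the glucose transporter of the blood-brain barrier endothelium and of glia, and GLUT3 as that of neurons. MCT1 carries lactate in glia and endothelium, MCT2 is known from neurons, and MCT4 is a low-affinity carrier of strongly glycolytic cells. LDHA-rich lactate dehydrogenase is usually associated with making lactate and LDHB-rich enzyme with using it, and in white matter lactate from glia is regarded as a fuel for axons.

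After filtering, 37247 nuclei remained, 3420 to 6235 per library, with median depths of 2377 to 3306 UMIs (unique molecular identifiers, each counting 1 captured transcript). Clusters were named from fixed marker genes, the 7 members and the other genes of their pathways having been kept out of the clustering, and 9.47% of the nuclei stayed unnamed. The 7 cell types compared were OLs (19242 nuclei), astrocytes (8226), fibroblasts (3391), myeloid cells (1409), oligodendrocyte precursor cells (OPCs, 733), neurons (313) and endothelial cells (239). Pairs of libraries shared 4 to 21 called barcodes, at most 0.404% of the smaller library. Control replicate 3 stood apart by RNA of pituitary genes in its empty droplets, where 5 markers summed to 8072 CPM (UMIs of a gene for every 1000000 UMIs counted in the same droplets or cell type of that library), against 204 to 584 in the other controls and 7.06 to 77.6 in the libraries labelled cKO. *Piezo2* itself was not reduced in OLs that carried the cKO label. Its level was 505, 392, 407 and 481 CPM in the controls and 532, 535, 572 and 522 CPM in the cKO-labelled libraries, a log2 difference of 0.26 (SE 0.11, adjusted p = 0.556 in edgeR). The counts are of transcript 3′ ends, so this value checks nothing about the labels where the floxed exons lie outside the counted part.

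The *Slc2a1* gene (ENSMUSG00000028645) lies on the plus strand at chr4:118965908-118996365 of GRCm39, *Slc16a3* (ENSMUSG00000025161) on the plus strand at chr11:120838846-120851694, *Slc16a1* (ENSMUSG00000032902) on the plus strand at chr3:104545811-104565780 and *Ldha* (ENSMUSG00000063229) on the plus strand at chr7:46490899-46505061. The 250 bases before the start of the canonical transcript are printed for *Slc2a1*, *Slc16a3* and *Ldha*, textbook targets of hypoxia-inducible factors. One form of the binding core of these factors is ACGTG, the only form searched here. The window of *Slc16a1* is printed because it also holds these letters. Capitals mark ACGTG on either strand (read as CACGT on the other), including the overlapping palindrome CACGTG.
Slc2a1, chr4:118965658-118965907, plus strand: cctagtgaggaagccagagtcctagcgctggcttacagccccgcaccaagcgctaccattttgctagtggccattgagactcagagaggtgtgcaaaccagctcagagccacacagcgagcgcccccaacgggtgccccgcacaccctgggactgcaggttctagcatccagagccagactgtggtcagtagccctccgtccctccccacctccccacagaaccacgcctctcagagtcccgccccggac
Slc16a3, chr11:120839291-120839540, plus strand: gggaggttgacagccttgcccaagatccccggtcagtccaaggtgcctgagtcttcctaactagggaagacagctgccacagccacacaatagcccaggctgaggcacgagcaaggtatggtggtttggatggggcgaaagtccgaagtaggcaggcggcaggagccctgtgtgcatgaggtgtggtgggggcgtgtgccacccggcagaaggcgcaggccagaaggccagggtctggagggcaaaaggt
Slc16a1, chr3:104545561-104545810, plus strand: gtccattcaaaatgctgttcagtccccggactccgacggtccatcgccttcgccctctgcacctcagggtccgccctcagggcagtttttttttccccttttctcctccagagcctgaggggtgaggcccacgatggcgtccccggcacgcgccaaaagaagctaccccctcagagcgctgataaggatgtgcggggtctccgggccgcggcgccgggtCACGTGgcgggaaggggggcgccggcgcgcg
Ldha, chr7:46495013-46495262, plus strand: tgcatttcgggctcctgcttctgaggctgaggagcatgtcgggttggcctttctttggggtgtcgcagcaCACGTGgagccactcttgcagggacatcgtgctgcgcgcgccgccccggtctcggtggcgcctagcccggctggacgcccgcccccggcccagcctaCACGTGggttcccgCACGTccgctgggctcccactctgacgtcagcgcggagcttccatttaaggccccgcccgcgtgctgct
The *Ldha* window held 3 capital runs, the *Slc16a1* window 1, and the windows of *Slc2a1* and *Slc16a3* 0. Among the 21770 upstream windows of the same length, 17.0% held the motif. *Slc16a7* (ENSMUSG00000020102, minus strand, chr10:125055129-125225463) had 1 run, and *Slc2a3* (ENSMUSG00000003153, minus strand, chr6:122704768-122778599) and *Ldhb* (ENSMUSG00000030246, minus strand, chr6:142435672-142454586) had 0. A match here describes letters and not a bound site. Windows with 0 runs can still hold another form of the core, which was not counted.

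To ask where each gene was expressed, UMIs were summed per library and cell type, and each type was set against the mean of the other 6 types. A gene was called when its edgeR adjusted p was under 0.05 and its log2 difference over 0.5 in size. The carriers were unevenly spread over the cell types. *Slc2a1* was highest in endothelial cells, *Slc2a3* in astrocytes and neurons, *Slc16a1* in astrocytes and endothelial cells, *Slc16a7* in OLs and myeloid cells and *Slc16a3* in myeloid cells. In the control libraries 29 of 42 tests of a member in a cell type were called, 15 higher and 14 lower, and in the libraries labelled cKO 31 of 42 were called. The 28 called in both sets had the same direction, as did all 42 fitted differences. Levels are compared between cell types within a gene and not between genes, since 3′ counts are not scaled per length.

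**Figure D1:**
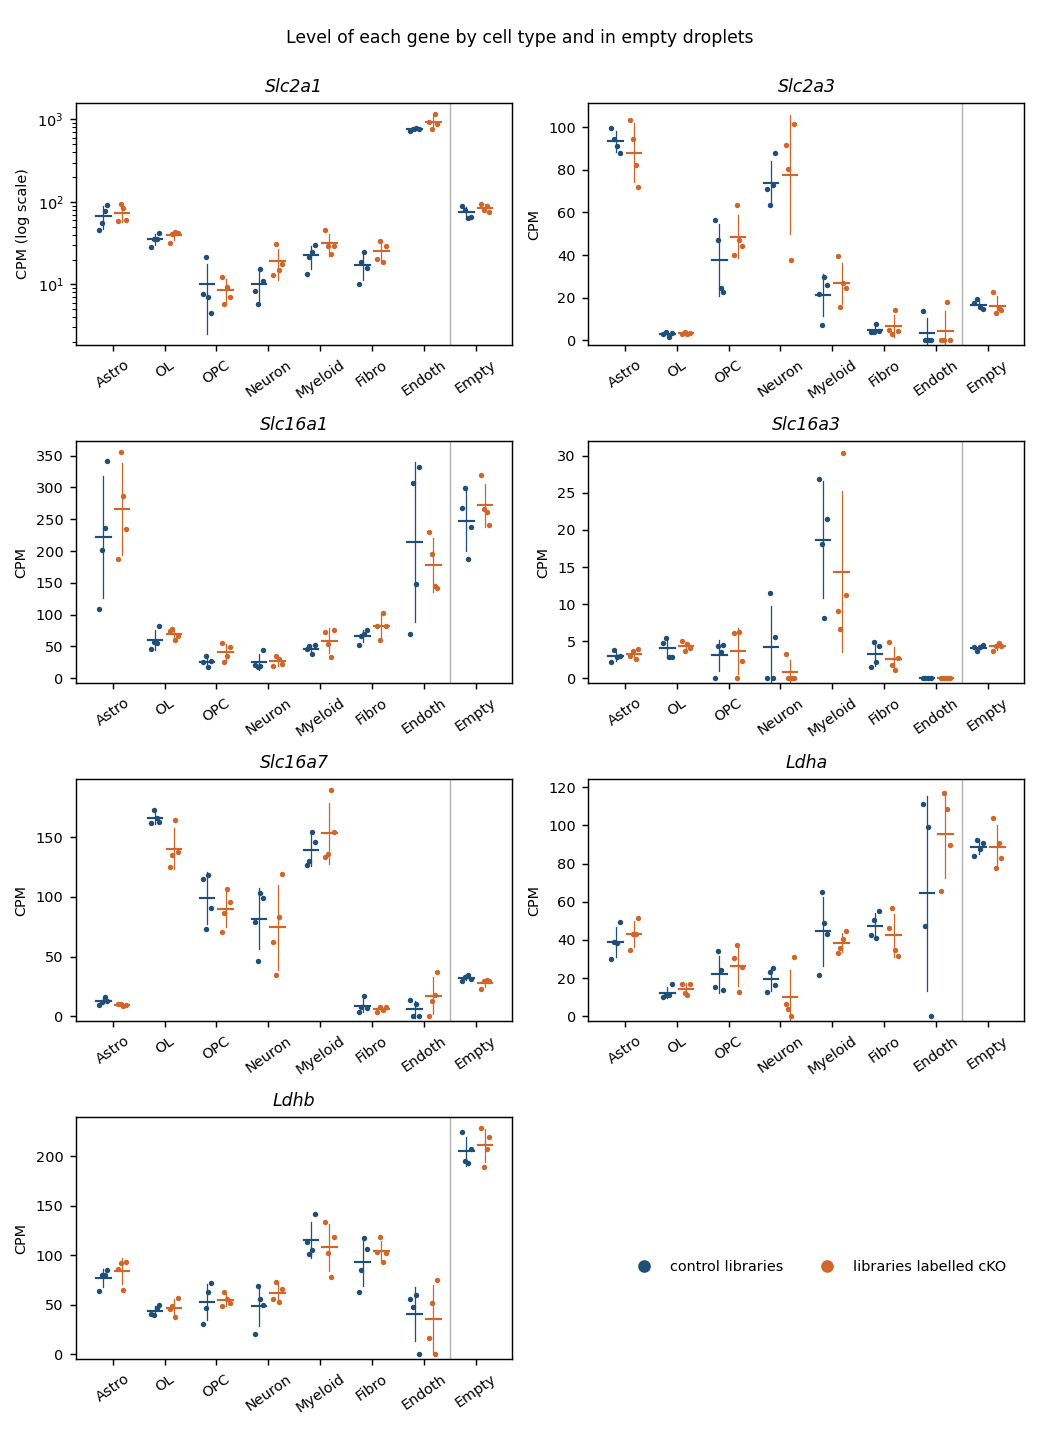
Levels of the 7 genes in CPM (vertical axes, log scale for *Slc2a1*) by cell type and in empty droplets (horizontal axis); each point is a library coloured by group, lines are means and bars ± SD. *Slc2a1* stood highest in endothelial cells (848 ± 143.5 CPM over 8 libraries), *Slc16a7* in OLs (153 ± 17.8 CPM) and myeloid cells (146 ± 20.3 CPM).

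Read against all 10990 genes tested in the controls, 4 of 6 tested members were called in astrocytes (39.8% of all genes), 5 of 6 in endothelial cells (29%), 5 of 6 in fibroblasts (35.5%), 4 of 6 in myeloid cells (41.8%), 4 of 6 in neurons (44.1%), 4 of 6 in OPCs (29.5%) and 3 of 6 in OLs (45.5%). In the libraries labelled cKO, with 11615 genes tested, 5 of 6 were called in astrocytes (39.3% of all genes), 6 of 6 in endothelial cells (30.5%), 4 of 6 in fibroblasts (35.7%), 4 of 6 in myeloid cells (42.9%), 5 of 6 in neurons (39%), 4 of 6 in OPCs (32.4%) and 3 of 6 in OLs (45.8%). The share in OLs was close to that of all genes. When cell types were ordered by their mean over the 8 libraries, 13 of 36 tested steps from one type to the next were called, in contrasts that called 48.9% of all genes. Folds of steps are those of the fit, which scales the sums of each type by TMM, and can differ from the ratio of the printed CPM means, as for *Slc2a1* in OLs (37.5 CPM) and myeloid cells (27.1 CPM), where the fitted step was 1.92-fold. Endothelial values rested on 11 to 62 nuclei per library, and the median of all genes there was shifted by −0.45 on the log2 scale in the controls and −0.36 in the libraries labelled cKO, so differences of endothelial cells are best read relative to that shift.

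The glucose transporter *Slc2a1* marked the endothelium. Its level in endothelial cells was 722, 757, 793 and 773.5 CPM in the controls and 919, 768, 1161 and 890.1 CPM in the cKO-labelled libraries. Every one of these values exceeded every library of every other type. In the controls it was 4.69 higher than the mean of the other types on the log2 scale (SE 0.21, adjusted p = 2.1e-20), and it was 4.73 higher in the libraries labelled cKO. The step from endothelial cells down to astrocytes was 8.97-fold (adjusted p = 2.8e-28).

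Astrocytes came next for *Slc2a1*, with 45.9, 55.6, 77.9 and 90.8 CPM in the controls and 57.9, 94.2, 84.9 and 60.4 CPM in the cKO-labelled libraries. The groups overlapped, and the lowest astrocyte value stayed above the highest OL value. OLs had 28.8, 35.1, 35.9 and 41.4 CPM in the controls and 32.2, 41.0, 43.6 and 42.5 CPM in the cKO-labelled libraries. Astrocytes were called higher than the other types' mean (log2 difference 1.09, SE 0.17), and both the step from astrocytes to OLs (1.61-fold) and that from OLs to myeloid cells (1.92-fold) were called. Myeloid cells, fibroblasts, neurons and OPCs followed with means of 27.1, 21.3, 14.6 and 9.37 CPM, and no step among them was called. Because OLs were the most numerous nuclei, they held 43.2% of the *Slc2a1* UMIs of named nuclei, astrocytes 38.1% and endothelial cells 10.0%. The lower call in myeloid cells was lost without control replicate 2 (log2 difference −0.93) or control replicate 3 (−0.94), with free RNA subtracted (−0.99) and when thinned (−0.77). In the controls the lower calls in fibroblasts (−0.48) and neurons (−1.37) were also lost with free RNA subtracted, and that in neurons when thinned (−1.33).

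*Slc2a3*, known as the neuronal glucose transporter, stood in astrocytes at levels that overlapped those of the neuron clusters. The ON holds axons rather than neuron cell bodies, and where the 16 to 77 neuron nuclei per library came from was not tested. Astrocytes had 99.6, 94.6, 91.4 and 87.8 CPM in the controls and 103.3, 94.5, 82.2 and 71.7 CPM in the cKO-labelled libraries. Neurons had 70.8, 63.6, 72.7 and 87.9 CPM in the controls and 91.7, 80.2, 37.7 and 101 CPM in the cKO-labelled libraries. The ranges of both types overlapped, and the step between them was 1.06-fold (adjusted p = 0.720). Both were called higher than the mean of the other types in the controls, by 2.92 (SE 0.17, adjusted p = 2.6e-17) in astrocytes and 2.58 (SE 0.27, adjusted p = 2.4e-10) in neurons on the log2 scale. Astrocytes held 78.2% of the *Slc2a3* UMIs.

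OPCs, with a mean of 43.1 CPM of *Slc2a3*, were called 1.62 higher than the mean of the other types, while OLs, which arise from them, were called 2.62 lower (SE 0.61). OLs had 3.07, 3.94, 1.46 and 3.60 CPM in the controls and 3.04, 3.92, 3.06 and 3.48 CPM in the cKO-labelled libraries, all below the lowest OPC library (22.6 CPM). The steps from neurons to OPCs, from OPCs to myeloid cells and from myeloid cells to fibroblasts were called, at 1.73-fold, 2.41-fold and 3.70-fold. The first of these steps was lost with free RNA subtracted (log2 difference 0.60) and with nuclei thinned to 1000 UMIs (0.58), and the second when thinned (0.88). Endothelial cells had 2 UMIs of *Slc2a3* among 569014, a level with an exact Poisson interval of 0.426 to 12.7 CPM. Leaving out control replicate 1 ended the lower calls in OLs (log2 difference −1.72) and in fibroblasts (−0.96). The lower call in endothelial cells rested on 1 control UMI and was lost with the library as a block (−2.75). It was also lost under DESeq2 (−2.24) or its size factors (−2.63), with free RNA subtracted (−2.15) and when thinned (−6.21). The same happened without control replicate 2, 3 or 4 (−2.47, −1.96 and −2.55). When thinned, the calls in OLs (−1.74), fibroblasts (−1.66) and OPCs (1.81) were lost in the controls.

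*Slc16a1*, the monocarboxylate carrier of glia and endothelium, was highest in astrocytes. Astrocytes had 109, 201, 237 and 341 CPM in the controls and 188, 356, 286 and 235 CPM in the cKO-labelled libraries. The control range held 3 of the 4 libraries labelled cKO, so the groups overlapped. Endothelial cells had 69.4, 307, 149 and 332 CPM in the controls and 230, 195, 145 and 142 CPM in the cKO-labelled libraries, a range that overlapped the astrocytes. The step from astrocytes to endothelial cells was still called (1.81-fold, edgeR adjusted p = 8.7e-04), as was that from endothelial cells to fibroblasts (1.99-fold). Relative to the mean of the other types, *Slc16a1* was 2.14 higher on the log2 scale in astrocytes (SE 0.17, adjusted p = 8.2e-14) and 1.31 higher in endothelial cells (SE 0.36, adjusted p = 0.0059). The endothelial call was lost without control replicate 2 (1.08) and when thinned (0.98).

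OLs, which are often described as the *Slc16a1* cell of white matter, had 46.1, 57.0, 55.8 and 82.1 CPM in the controls and 74.3, 77.1, 59.5 and 66.3 CPM in the cKO-labelled libraries. Every one of these values was under the lowest astrocyte library. OLs did not differ by the test from the other types' mean (log2 difference 0.17) or from fibroblasts, which had 52.6, 67.1, 69.4 and 75.5 CPM in the controls and 81.9, 59.6, 103 and 81.5 CPM in the cKO-labelled libraries. The step from OLs to myeloid cells was called (1.65-fold, edgeR adjusted p = 0.0013). By number of UMIs, astrocytes held 54.7% of *Slc16a1* and OLs 32.7%. Neurons, OPCs and myeloid cells were called lower than the mean of the other types in the controls, by 1.59, 1.31 and 0.72 on the log2 scale. All 3 missed the threshold with free RNA subtracted, although the fitted differences were as large or larger (−1.99, −7.11 and −7.11, the last pair being of counts close to 0), and with nuclei thinned to 1000 UMIs, at differences close to those above (−1.58, −1.50 and −0.77). The myeloid call was also lost without control replicate 2, 3 or 4 (−0.69, −0.67 and −0.60).

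*Slc16a7* had the reverse distribution of *Slc16a1* between the main glial types, and was high in cells other than neurons too. OLs had 162, 172.5, 166 and 163 CPM in the controls and 125, 135, 164.5 and 137.5 CPM in the cKO-labelled libraries. Myeloid cells had 127, 130, 155 and 146 CPM in the controls and 133, 136, 189 and 155 CPM in the cKO-labelled libraries. Levels in both types overlapped, and their step of 0.50 on the log2 scale (adjusted p = 9.5e-04) did not pass the size threshold.

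OPCs followed with a mean of 94.4 CPM and neurons with 78.3 CPM of *Slc16a7*. All 4 types were called higher than the mean of the other types in the controls, by 2.61 in OLs (SE 0.15, adjusted p = 6.1e-18), 1.88 in myeloid cells, 1.72 in OPCs and 1.36 in neurons on the log2 scale. Endothelial cells, astrocytes and fibroblasts had means of 11.5, 11.1 and 7.41 CPM and were called lower, and the step from neurons to endothelial cells was 8.58-fold. Astrocyte libraries lay between 8.55 and 15.7 CPM, below every OL library. OLs held 87.2% of the *Slc16a7* UMIs. The 7 calls of *Slc16a7* among cell types in the controls kept their direction and their side of the threshold under every alternative run, among them leaving out any library, DESeq2, subtraction of free RNA and nuclei thinned to 1000 UMIs. In the libraries labelled cKO the endothelial difference was smaller (−1.43, SE 0.50, adjusted p = 0.0271) and its call was lost under DESeq2 (−1.29), with free RNA subtracted (−1.25), when thinned (−1.15) and without cKO replicate 10, 11 or 12 (−1.16, −1.25 and −1.25).

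*Slc16a3*, the carrier of glycolytic cells, was close to the limit of detection. Myeloid cells had 26.9, 18.1, 8.14 and 21.5 CPM in the controls and 9.09, 6.68, 30.4 and 11.2 CPM in the cKO-labelled libraries, while every other type had a mean of 4.18 CPM or less. Endothelial cells had 0 of 569014 UMIs, with a limit of 5.27 CPM at 3 counts and an exact Poisson upper bound of 6.48 CPM. The gene failed the filter on low counts. In a fit with no filter it was called higher in myeloid cells in the controls (log2 difference 3.21, SE 0.63, adjusted p = 3.3e-06) and in the libraries labelled cKO (2.94, adjusted p = 9.0e-05). The same fit called it higher in OLs of the libraries labelled cKO (1.62, SE 0.61, adjusted p = 0.0268) and not in OLs of the controls (1.24, adjusted p = 0.199).

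*Ldha* was low in OLs. They had 9.92, 11.3, 11.4 and 16.7 CPM in the controls and 16.8, 12.1, 11.3 and 17.0 CPM in the cKO-labelled libraries. Astrocytes had 29.9, 38.7, 38.1 and 49.3 CPM in the controls and 34.8, 43.1, 43.1 and 51.6 CPM in the cKO-labelled libraries, so that no astrocyte library fell into the range of the OLs. In the controls OLs were called lower than the mean of the other types by 1.36 on the log2 scale (SE 0.19, adjusted p = 1.6e-07). With nuclei thinned to 1000 UMIs, *Ldha* failed the filter on low counts in the controls and was not tested, and the call in OLs of the libraries labelled cKO was lost (−0.26).

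Endothelial cells had the highest mean of *Ldha* (79.8 ± 40.2 CPM, n = 8), with 111, 47.3, 99.1 and 0 CPM in the controls and 65.6, 117, 109 and 89.8 CPM in the cKO-labelled libraries. They were called higher than the mean of the other types in the controls (log2 difference 1.16, SE 0.41, adjusted p = 0.0329), a call lost without control replicate 1 (0.84) or 3 (0.98) and with no filter on low counts (1.01). Fibroblasts were called higher by 0.58 in the controls, a call lost without control replicate 1 (0.50), under DESeq2 (0.49) and at resolution 1.5 (0.47), and the difference in the libraries labelled cKO (0.45) was not called. Fibroblasts, myeloid cells and astrocytes had similar means of 44.9, 41.6 and 41.1 CPM, and no step between them was called.

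*Ldhb* was the most evenly spread of the 7 genes, and none of its 6 steps between neighbouring types was called. Free RNA of the suspension, described below, was expected to give 23.4 CPM of it in neurons and up to 71.0 CPM in OPCs, where its share may be set too high. The part of free RNA in this even spread was not tested. Myeloid cells had 113, 101, 106 and 142 CPM in the controls and 133, 102, 77.7 and 119 CPM in the cKO-labelled libraries. Fibroblasts had 62.6, 84.6, 118 and 106 CPM in the controls and 103, 119, 93.3 and 102 CPM in the cKO-labelled libraries. OLs had 40.2, 39.7, 46.3 and 50.2 CPM in the controls and 45.8, 48.4, 37.2 and 57.1 CPM in the cKO-labelled libraries, below every astrocyte library (64.3 CPM or more). In the controls the calls were in myeloid cells (0.81 higher on the log2 scale, SE 0.19, adjusted p = 7.7e-04) and in fibroblasts (0.57 higher). The fibroblast call was lost without control replicate 3 (0.49), under DESeq2 (0.48), at resolution 1.5 (0.43) and when thinned (0.48).

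The ratio of the subunits was compared as the share of *Ldha* among the UMIs of *Ldha* and *Ldhb* in a library, which does not depend on how the cell type was scaled. Astrocytes had a larger share of *Ldha* than OLs, 33.7% ± 3.50 (SD, n = 8) against 22.5% ± 2.61 (n = 8). The difference was 11.2 percentage points and had the same sign in 8 of 8 libraries (exact sign-change permutation test, two-sided p = 0.0078, adjusted over 10 pairs 0.0391, where 0.0078 is the smallest p that 8 libraries allow). OLs also had a lower share than fibroblasts (31.5% ± 5.77, n = 8), by 9.07 percentage points in 8 of 8 libraries (exact permutation test, adjusted p = 0.0391). Endothelial cells had a share of 63.2% ± 6.42 over the 4 libraries with enough UMIs, and with 4 libraries no exact permutation test can reach the threshold. Empty droplets had 29.9% ± 1.84 (n = 8). *Ldha* in OLs did not exceed the level expected from free RNA, as described below, so the OL share may in part be that of free RNA. With free RNA subtracted, 3 of 10 pairs passed the threshold, against 2 without subtraction. That count says nothing about OLs. *Ldha* in OLs exceeded its expectation in 0 of 8 libraries, so subtraction took it to 0 and fixed the OL share in advance.

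**Figure D2:**
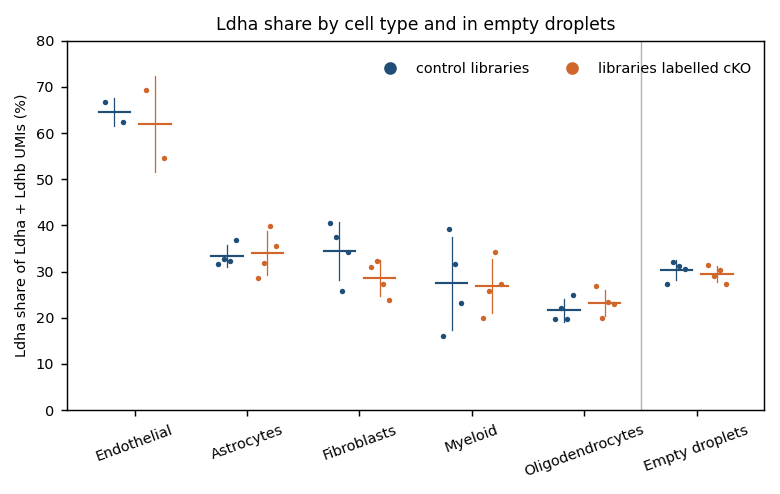
Share of *Ldha* among *Ldha* and *Ldhb* UMIs (vertical axis, percent) by cell type and in empty droplets (horizontal axis); points are libraries coloured by group, lines are means and bars ± SD. OLs were lowest (22.5%), astrocytes higher (33.7%) and endothelial cells highest (63.2%, from few UMIs in 4 libraries), with the empty droplets at 29.9% between OLs and astrocytes.

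Transcripts outside nuclei were compared with those inside, since droplets without a nucleus hold free RNA of the suspension. *Slc16a1*, *Ldha*, *Ldhb* and *Slc2a1* were less abundant in nuclei than in empty droplets in all 8 libraries, by 1.37, 1.81, 1.74 and 0.75 on the log2 scale. *Slc16a7* and *Slc2a3* were more abundant in nuclei in all 8 libraries, by 1.68 and 0.77. For each of the 6 genes the exact sign-change permutation test gave the smallest p that 8 libraries allow (two-sided p = 0.0078, adjusted over 7 genes 0.00911), and *Slc16a3* differed by −0.03 (exact p = 0.727). The test was not run over all genes, so the share of other genes that would reach this p is not known. Marker genes differed as well. In control replicate 1 the OL markers summed to 12234 CPM in nuclei and 24836 CPM in empty droplets, and the OPC markers to 860 and 237 CPM. In CPM, *Slc16a7* stood at 96.3 in nuclei and 30.01 in empty droplets, *Slc16a1* at 103 and 260.1, and *Ldha* at 25.5 and 88.9.

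To show which low levels exceeded what free RNA could bring, the level expected from free RNA alone was set for each library and type. It came from the share of free RNA estimated there, on average 11.4% in neurons to 34.4% in OPCs. That share may be too high for OPCs and for OLs. Free RNA adds to a level, so a level below its expectation may mean that the share was set too high. *Ldha* in OLs was 13.3 CPM against 15.4 CPM expected and exceeded the expectation in 0 of 8 libraries. *Ldhb* in OLs exceeded it in 8 of 8 libraries (45.6 against 36.2 CPM), as did *Slc16a1* in OLs (64.8 against 45.0 CPM) and *Slc2a1* in OLs (37.5 against 13.7 CPM). *Slc16a1* was not above the expectation in OPCs (33.6 against 88.4 CPM, 0 of 8 libraries), myeloid cells (52.7 against 60.0 CPM, 1 of 8) or neurons (25.9 against 29.4 CPM, 3 of 8). These levels, and that of *Slc2a1* in OPCs (9.37 against 27.1 CPM), cannot be told apart from free RNA. At the shares used, the mean of *Ldhb* was also not above free RNA in OPCs (54.1 against 71.0 CPM, 0 of 8 libraries) and in endothelial cells (38.2 against 39.0 CPM, 5 of 8). Nor was that of *Ldha* in OPCs (24.2 against 30.4 CPM, 2 of 8). The high levels stood far above it, with *Slc2a1* in endothelial cells at 848 against 14.9 CPM, *Slc2a3* in astrocytes at 90.6 against 2.31 CPM, *Slc16a1* in astrocytes at 244 against 36.7 CPM and *Slc16a7* in OLs at 153 against 5.22 CPM.

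**Figure D3:**
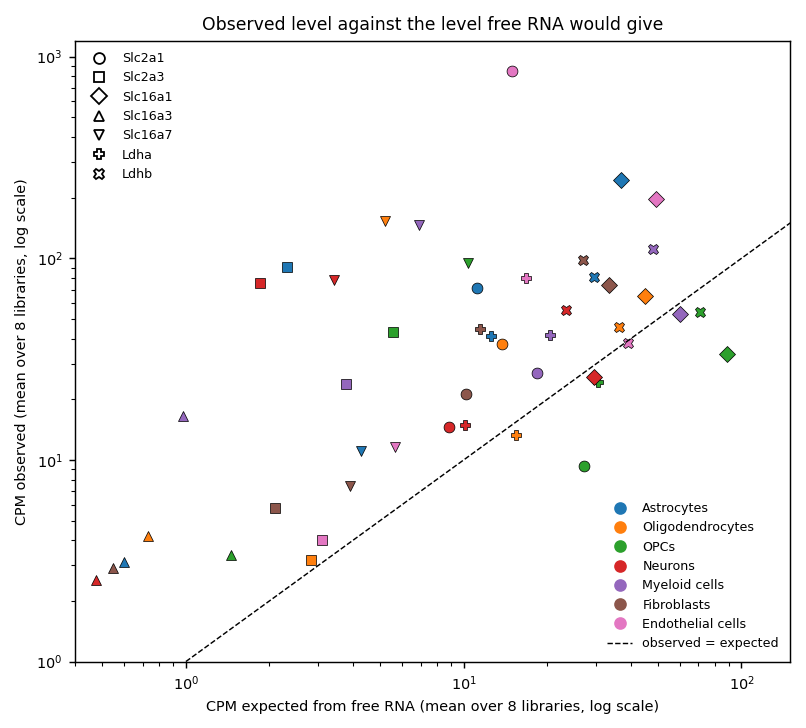
Mean level observed in each cell type (vertical axis, CPM, log scale) against the level expected from free RNA alone (horizontal axis, CPM, log scale) for each gene, with a dashed line of equality. *Slc16a7* in OLs stood far above the line (153 against 5.22 CPM), and *Ldha* in OLs lay just under it (13.3 against 15.4 CPM).

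Within the larger cell types, subclusters were compared with the other subclusters of the same type in the controls. Fibroblasts were the most varied, with 9 of 24 tests called (17.5% of all genes), against 5 of 45 in astrocytes (6.82%) and 4 of 50 in OLs (5.67%). *Slc16a1* was concentrated in a pair of fibroblast subclusters led by *Adamtsl3*, *Slc4a10* and *Chrm3*. In the first it had 135, 151, 129 and 116 CPM in the controls, 1.94 higher than in the other fibroblast subclusters on the log2 scale, and in the second 112, 116, 154 and 184 CPM, 2.05 higher. The other fibroblast subclusters had control means of 13.6 to 65.2 CPM. In the libraries labelled cKO the same subclusters were 2.13 and 1.85 higher. *Ldhb* had another pattern, with 161, 167 and 159 CPM in 3 other subclusters, and was called lower in another 3, with 50.8 and 44.2 CPM in a pair that was not *Slc16a1*-rich and 55.0 CPM in the second of the *Slc16a1*-rich pair. Of these 6 calls for *Ldhb* only the first, 0.99 higher, was kept without any 1 control library. The second and the third were lost without replicate 1 (0.72 and 0.87) or 3 (1.11 and 0.90), the third also without replicate 4 (0.92), and the low calls without replicate 1, 3 or 4 (−0.76, −0.96 and −0.82) and without replicate 2 or 3 (−0.81 and −0.80) in the pair that was not *Slc16a1*-rich. The low call in the *Slc16a1*-rich subcluster was lost without any one of replicates 1 to 4 (−0.68, −0.66, −0.89 and −0.90).

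Astrocyte subclusters all expressed *Slc16a1* and *Slc2a3*, with a low subcluster of 224 nuclei led by *Sfta3-ps*, *Fat3* and *Col23a1*. There *Slc16a1* had 92.8 CPM and *Slc2a3* 42.3 CPM in the controls, 1.36 and 1.07 lower than in the other astrocytes on the log2 scale, and 1.69 and 2.88 lower in the libraries labelled cKO, where *Slc2a3* had 3 UMIs in all. Those calls were lost in the controls without replicate 2 (*Slc16a1*, −1.16) and without replicates 1 or 3 (*Slc2a3*, −0.94 and −0.93). A subcluster of 1333 nuclei led by *Pde3a* had the highest *Slc2a3* (115 ± 3.87 CPM, 0.65 higher). Among OLs, 3 of the 4 calls, for *Slc16a1* (0.94 higher), *Ldhb* (1.10 higher) and *Ldha* (1.07 higher), were in a subcluster of 1693 nuclei whose depth was 0.536 of the OL median and whose leading genes were hemoglobin and ribosomal genes. With free RNA subtracted the calls for *Slc16a1* and *Ldhb* there were lost (0.71 and 1.40). The call for *Ldha* was lost without control replicates 1, 2 or 4 (0.92, 1.09 and 1.01) and with the library as a block (0.97). The other call was *Ldhb* in a subcluster of 3413 nuclei, 0.51 higher, which was lost without control replicate 3 (0.39).

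**Figure D4:**
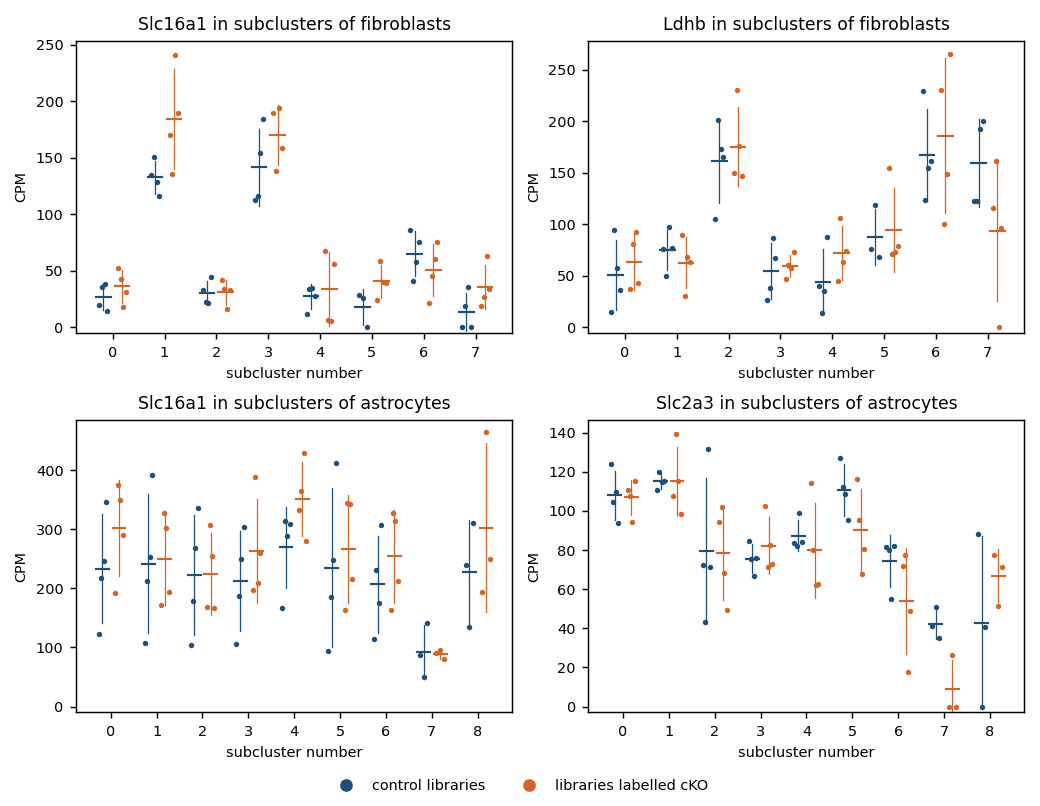
Levels (vertical axes, CPM) of *Slc16a1* and *Ldhb* in fibroblast subclusters and of *Slc16a1* and *Slc2a3* in astrocyte subclusters (horizontal axes, subcluster numbers); points are libraries coloured by group, lines means and bars ± SD. In fibroblast subclusters 1 and 3, *Slc16a1* lay at 112 to 184 CPM in the controls, and in astrocyte subcluster 7 both genes were low (control means 92.8 and 42.3 CPM).

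The rest of the pathway was described by 6 lists with 64 matched genes. Of all 10990 genes, 2969 were called higher and 1403 lower in astrocytes (39.8% in all), 2497 and 1399 in fibroblasts (35.5%), and 2684 and 2312 in OLs (45.5%). In the controls 9 of 17 glycolysis genes were called higher in astrocytes and 0 lower, with a median of 0.85 on the log2 scale against 0.07 for all genes, and 5 of 6 glycogen genes were called higher with a median of 1.25. *Hk2*, a hexokinase, was 2.84 higher in astrocytes, *Pygb*, the brain form of glycogen phosphorylase, 2.07 higher, and *Prkaa2*, a catalytic subunit of AMP-activated kinase, 2.02 higher.

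OLs had 2 of 17 glycolysis genes called higher and 6 lower, with a median of −0.19, a share called that was close to that of all genes. *Pkm*, a pyruvate kinase, was 0.74 higher and *Pgk1*, a phosphoglycerate kinase, 0.57 higher, whereas *Pfkp*, a phosphofructokinase, was 2.66 lower. Of 10 genes for pyruvate entry into mitochondria 4 were called higher and 1 lower in OLs, among them *Pdk3*, a kinase that inhibits pyruvate dehydrogenase (1.40 higher), *Pcx*, pyruvate carboxylase (1.35 higher), *Pdk2* (1.299 higher) and *Mpc1*, a subunit of the mitochondrial pyruvate carrier (0.55 higher). The share called in this list was also close to that of all genes. Of 5 other monocarboxylate carriers and partners, 5 were called lower in OLs with a median of −1.58.

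Fibroblasts had 4 of those 5 carriers and partners called higher, with a median of 1.27, and *Slc16a12* and *Slc16a11* were 4.66 and 4.45 higher there, with 145 and 80.9 CPM, as was *Egln3*, a hypoxia-sensing prolyl hydroxylase (4.07 higher). Endothelial cells had *Bsg*, the chaperone that brings MCT1 and MCT4 to the membrane, 4.29 higher at 3532 CPM, and *Epas1*, a hypoxia-inducible factor, 4.48 higher, and *Gbe1*, the glycogen branching enzyme, 1.97 higher. Myeloid cells had *Slc2a5*, a fructose transporter, 6.198 higher, *Hk2* 5.05 higher and *Slc16a6*, a further monocarboxylate carrier, 2.49 higher. Neurons had *Slc2a13*, an inositol transporter, 3.56 higher, *Eno2*, the neuronal enolase, 2.86 higher and *Slc16a11* 2.78 higher. OPCs had *Pfkm*, a phosphofructokinase, 1.79 higher, *Epas1* 1.73 higher and *Phka1*, a phosphorylase kinase subunit, 1.67 higher. Over all 49 tested genes of the lists 18 were called higher and 4 lower in astrocytes, 18 and 3 in fibroblasts, and 7 and 18 in OLs, shares not far above those of all genes. The counts were 6 and 10 in myeloid cells (41.8% of all genes called), 5 and 9 in endothelial cells (29%), 11 and 11 in neurons (44.1%) and 8 and 8 in OPCs (29.5%). None of these shares was far above that of all genes.

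Between genotypes, no member differed past the threshold in any cell type. Of 49 pairs of a gene and a cell type 32 passed the filter on low counts, and edgeR called 0 of 32, with 1 at an unadjusted p under 0.05, while DESeq2 called 0 of 44. The background was as low, with 0% of all genes called in astrocytes, endothelial cells, fibroblasts, myeloid cells and neurons, 0.0829% in OLs and 0.321% in OPCs. The tests covered 14543 genes in astrocytes but only 1370 genes, and 2 members, in endothelial cells. The log2 differences (cKO minus control) ran from −0.60 for *Slc16a7* in fibroblasts to 0.66 for *Slc16a1* in OPCs, with a median of 0.14, and in all 32 pairs the libraries of the groups overlapped. The pair with the smallest p was *Slc16a7* in OLs, where controls had 162 to 172.5 CPM and the libraries labelled cKO 125 to 164.5 CPM, a log2 difference of −0.25 (SE 0.10, adjusted p = 0.558).

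In OLs the 95% intervals of the 7 differences lay between −0.45 and 0.72, and in astrocytes the 6 intervals lay between −0.72 and 0.79. Among astrocyte values, *Slc16a1* differed by 0.26 (SE 0.27, interval −0.27 to 0.79), *Slc2a1* by 0.14, *Ldha* by 0.13, *Ldhb* by 0.12, *Slc2a3* by −0.10 and *Slc16a7* by −0.33. These are the outermost bounds over different genes and no limit of detection. The intervals use the normal distribution, so they are somewhat narrow for 4 libraries per group. Differences of 0.5 or less in size could not be called at any p, because of the size threshold. A test of whether the genotype difference itself varied between astrocytes and OLs called 0 of 7 members by edgeR (0.0186% of all genes, smallest adjusted p = 1). In empty droplets 0 of 7 members were called (0.0306% of all genes), with differences of −0.18 to 0.20.

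The groups did not overlap in hemoglobin RNA. The sum of 4 hemoglobin genes in empty droplets was 11617 to 18660 CPM in the controls and 5070 to 8378 CPM in the cKO-labelled libraries, and its part in the genotype values was not tested. Pituitary RNA in empty droplets did not overlap either, with 204 to 8072 CPM in the controls and 7.06 to 77.6 CPM in the cKO-labelled libraries. Its part was not tested. Without control replicate 3, the library with the most pituitary RNA, 0 of 33 pairs were called between genotypes. Among cell types in the controls 24 calls were then made, against 29 with all libraries. Leaving out another control library also lowered that count, to 25 without replicate 1, 25 without replicate 2 and 27 without replicate 4.

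**Figure D5:**
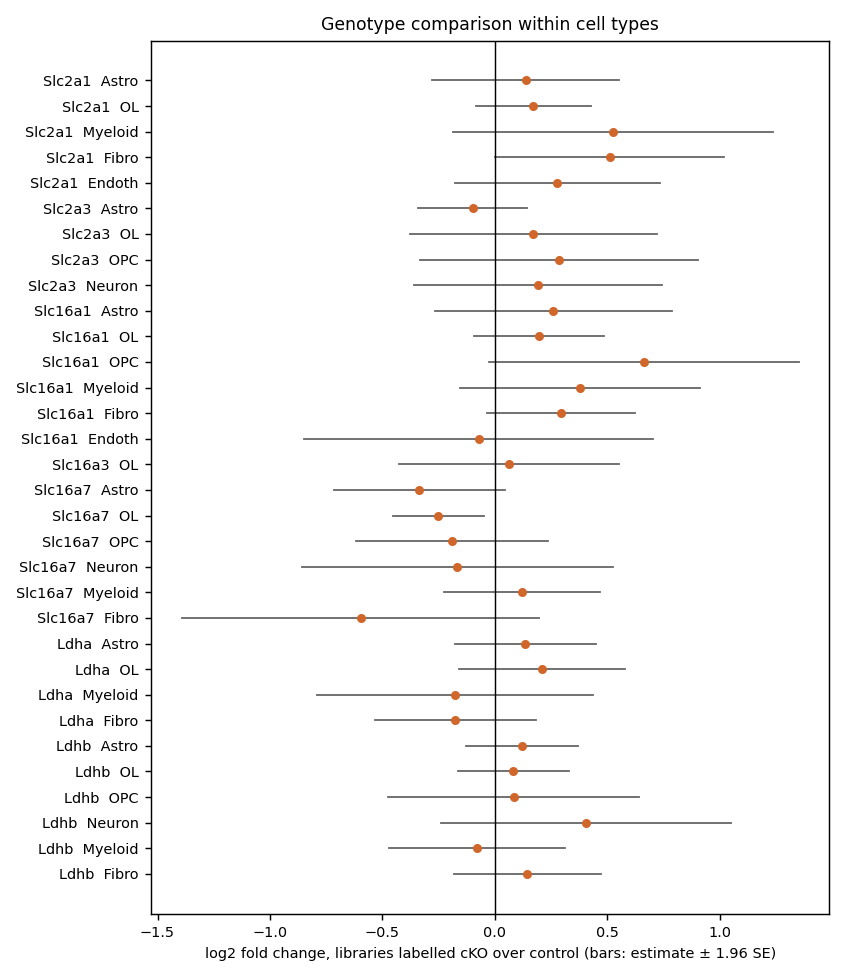
Log2 difference between the libraries labelled cKO and the controls (horizontal axis; bars are 95% intervals) for the 32 pairs of a gene and a cell type that passed the filter (vertical axis). The differences ran from −0.60 to 0.66, and 0 of 32 passed the threshold.

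Genes whose level over the 28 sums of the controls (7 cell types in 4 libraries) was most like that of a member were named by Pearson correlation, as a description, since the points share libraries and depth. *Slc2a1* was most like *Slco1c1*, a thyroid hormone transporter of the blood-brain barrier, with r = 0.89 in the controls and 0.94 in the libraries labelled cKO, followed by *Mecom* (0.89 and 0.86) and *Fryl* (0.89 and 0.90). *Slc16a1* was most like *Fas*, a death receptor (0.88 and 0.85), *Vamp5* (0.84 and 0.80) and *Fmo1* (0.84 and 0.84). *Slc2a3* was most like *Jakmip1* (0.92 and 0.75), *Rasgrf1* (0.90 and 0.82) and *Septin3* (0.90 and 0.79), and *Slc16a7* like *Gm27008* (0.90 and 0.81), *Csmd3* (0.89 and 0.80) and *Snx30* (0.88 and 0.43). Because these genes were picked for the highest r in the controls, a lower r in the other libraries can follow from the choice. Whether r differed between the groups was not tested. *Slc16a3*, with 182 UMIs in these sums, was most like *Trmo* (0.89 and 0.62), *Ighm* (0.85 and 0.65) and *Pgd* (0.83 and 0.14). *Ldha* was most like *Ptbp1* (0.93 and 0.51), *Yes1* (0.92 and 0.73) and *Zdhhc18* (0.89 and 0.41). *Ldhb* was most like *Hspa9* (0.94 and −0.07), *Necap2* (0.94 and 0.41) and *Acadm* (0.93 and 0.44).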

How the data were processed

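Nuclei of 8 libraries (6 ONs of 3 mice each) were profiled by droplet snRNA-seq. The deposited matrices hold the authors' UMI counts per gene and barcode, empty droplets included (Cell Ranger 7.0.0, GRCm39). The genes and lists were chosen with earlier results of these data known. Nuclei were called per library by a knee threshold and a test against empty droplets (FDR 0.01), then filtered (at least 200 genes, at most 5% mitochondrial UMIs, 5 median absolute deviations), and Scrublet doublets were removed. Total depth was 39628926 to 56541132 UMIs per library, and 33.7 to 47.9% of the UMIs were in called barcodes. Leiden clustering (scanpy 1.11.5, leidenalg 0.10.2, resolution 3, 30 principal components) left out 73 genes (members, pathway genes, *Piezo1* and *Piezo2*), and clusters were named from fixed markers. UMIs were added up for each cell type of a library (at least 10 nuclei and 1000 UMIs) and tested with edgeR 4.0.16 (quasi-likelihood, TMM, filterByExpr, limma 3.58.1, R 4.3.3), with Benjamini-Hochberg adjustment over all genes tested. Named were all members, the 3 pathway genes with the largest called rise per cell type, and the 3 genes most alike to each member. Pathway genes beyond these (*Pkm*, *Pgk1*, *Pfkp* and *Mpc1* in OLs) were chosen after their values were seen. Alternatives were DESeq2 1.42.0, its size factors, no filter, nuclei thinned to 1000 UMIs, free RNA subtracted, resolution 1.5, the library as a block (the cell types of a library come from the same mice) and leaving out each library. On simulated counts for the OL comparison of genotypes, 84% of 200 genes changed by 2-fold were recovered. Upstream sequences were read from GRCm39 with GENCODE vM39. Proteins and structures were not analysed here.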

Additional observations from a re-analysis of the deposited data

Results flagged for a closer look

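Of 102 groups of 4 libraries tested, 4 groups (of 3 genes) had a library far from the other 3 (the gap to the nearest library, divided by the range of the group, was above Dixon's 95% critical value). Chance gives about 1 such group in 20. *Slc16a1* in neurons was 43.96 CPM in control replicate 4 and 17.3 to 20.8 CPM in the other controls. *Slc2a3* in fibroblasts was 14.2 CPM in cKO replicate 12 against 3.07 to 4.82 CPM in the other libraries labelled cKO, and 7.51 CPM in control replicate 3 against 3.87 to 4.36 CPM in the other controls. *Slc16a7* in empty droplets was 22.5 CPM in cKO replicate 10 and 29.5 to 30.03 CPM in the other libraries labelled cKO.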

How the results depend on the processing

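Of the 29 cell type calls in the controls, 15 kept their side of the threshold under every alternative that tested them (*Ldha* in OLs was not tested with thinned nuclei), and 9 were lost when 1 library was left out. For the 31 calls in the libraries labelled cKO these numbers were 14 and 9, for the 13 steps 7 and 3, and for the 18 subcluster calls 3 and 11. With nuclei thinned to 1000 UMIs, 15 of 29 calls were left in the controls, 11 were lost and 3, all of *Ldha*, failed the filter and were not tested, and there were 18 in the libraries labelled cKO, 2 in OL subclusters and 1 in astrocyte subclusters, from fewer UMIs; fibroblast subclusters could not be run, so their calls were not tested with it. With free RNA subtracted, 1 call was left in OL subclusters, and 19 of 36 steps were called against 13 without it. The share of all genes called in the steps of that run is not given here. Leaving out 1 library gave 24 to 27 calls in the controls, 24 to 30 in the libraries labelled cKO, 11 to 15 steps, 3 to 4 calls in astrocyte, 4 to 6 in fibroblast and 3 to 5 in OL subclusters, and 6 to 6 genes between nuclei and droplets. The *Ldha* share had 0 pairs past the threshold in the controls alone and 0 to 0 without any 1 library, where an exact test over fewer libraries cannot reach as low a p. The called step of *Slc16a7* from astrocytes to fibroblasts turned to −0.15 at resolution 1.5. Among values that were not called, *Slc2a3* between genotypes in astrocytes turned to 0.15 when thinned, and the *Ldha* share of astrocytes minus fibroblasts was −1.14 percentage points in the controls alone. Without 1 library the genotype difference ran from −0.010 to 0.33 for *Slc2a1* in astrocytes, and in OLs from −0.060 to 0.32 for *Slc2a3*, −0.023 to 0.17 for *Ldhb* and −0.066 to 0.23 for *Slc16a3*. *Slc16a3* between nuclei and droplets ran from −0.092 to 0.0090. The cause of these changes was not tested. With the library as a block, 28 calls were made in the controls, 30 in the libraries labelled cKO, 14 steps, and 5, 6 and 9 in OL, astrocyte and fibroblast subclusters. No paired analysis was possible because the genotypes share no replicate number (1 to 4 and 10 to 13). Low counts limit *Slc16a3*, endothelial cells and neurons.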

Other observations

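One relation was noticed after the data were seen. Over the 8 libraries, the levels of *Slc2a1* and *Slc16a1* in astrocytes varied together, with Pearson's r = 0.95 (permutation p = 7.44e-05, adjusted 0.0031 over the 42 pairs of members in astrocytes or OLs) and Spearman's rho = 0.98 (permutation p = 4.0e-04, adjusted 0.0167). It was the only 1 of 42 pairs past the threshold, and the next was *Slc2a3* with *Ldha* (r = −0.83, permutation p adjusted to 0.214). Only pairs of members were compared, so the share of other genes that vary as closely with *Slc2a1* in astrocytes is not known. Without the 2 libraries farthest from the median of *Slc2a1*, r was 0.91 (n = 6, permutation p = 0.0042). The libraries had the same order within each group of 4, which is too few to test. With free RNA subtracted, an alternative added after seeing the data, r was 0.96 and rho 0.98. The estimated share of free RNA in the astrocyte sums was 10.0, 13.9, 14.4 and 16.3% in the controls and 13.7, 15.1, 11.0 and 19.3% in the libraries labelled cKO.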
